A study of Mus musculus with 18 samples.

Results

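The MHC class II genes and their activator Ciita were followed across B cells and T cells of the mouse spleen by chromatin accessibility. The 10 genes were H2-Aa, H2-Ab1, H2-Eb1, H2-DMa, H2-DMb1, H2-DMb2, H2-Oa, H2-Ob, Cd74 and Ciita. A region was counted to one of them when the nearest end of any protein-coding gene, within 50 kb on mm10, belonged to it. This gave 35 of the 27396 regions in the table, and 35 of the 25712 regions tested. H2-Aa had 7 regions, H2-Ob 5, H2-Eb1 and H2-Oa 4 each, H2-Ab1, H2-DMb2 and Cd74 3 each, and H2-DMa, H2-DMb1 and Ciita 2 each.

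The measurement was ATAC-seq, in which a transposase inserts sequencing adapters where DNA is unprotected, so that read counts follow accessibility. Frozen spleen sections of wild-type C57BL/6J mice were tagmented on the slide, and immunostained B or T cells were then cut out by laser capture microdissection. The groups were B patches (n = 5 libraries) and T patches (n = 5), each pooled from 10 captured areas with about 1000 nuclei in all, and B and T captures of 100 single nuclei (n = 4 each). All groups share strain and genotype; the sources used here do not give age, sex, stained markers or how many mice were used. The labels call the libraries technical replicates and tie none to an animal, so the p-values reflect the spread among libraries alone and overstate what is known about mice.

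MHC class II molecules present peptides from engulfed or recycled proteins to CD4 T cells, and in the mouse their genes are switched on mainly in B cells, dendritic cells, macrophages and thymic epithelium, not in resting T cells. H2-Aa with H2-Ab1 encodes the alpha and beta chains of I-A, and H2-Eb1 the beta chain of I-E, which C57BL/6 mice do not put on the surface because their H2-Ea is defective. Cd74 is the invariant chain that blocks the groove and guides the molecule to endosomes, H2-DM then exchanges the blocking fragment for peptide, and H2-DO (H2-Oa with H2-Ob) restrains H2-DM. Transcription is controlled by a shared promoter module of X and Y boxes, bound by the RFX complex, CREB and NF-Y, on which the co-activator CIITA, product of Ciita, assembles.

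Depth and composition frame these values. Total counts were 2713677 to 6553535 per library in B patches, 2193837 to 7343204 in T patches, 547333 to 720555 in B captures of 100 nuclei and 319481 to 1076765 in T captures of 100 nuclei. Regions of 8 B cell marker genes took 0.113% to 0.158% of nuclear counts in B patches, against 0.0206% to 0.0394% in T patches, and regions of 10 T cell marker genes took 0.0293% to 0.0470% in B patches, against 0.136% to 0.210% in T patches, so the markers followed the labels. Cd4 had no region, so the marker that defines helper T cells could not be read. The library B patch 2 and the library T patch 2 stood apart, with 22.1% and 23.3% of the tested regions at 0, against 1.21% to 7.86% in the other 8 patch libraries. Calls gained without them are given beside the regions.

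The promoters of 6 of these genes carry the Y box in one orientation, and are shown because all 6 printed stretches lie wholly inside regions of the set and hold the Y box through which class II genes are known to be controlled; the X box core was found in 3 of them. They come from the RefSeq promoter windows of GRCm38.p6, the assembly behind mm10, which run from 250 bases before to 50 after a start site; 7 of the 10 genes had 8 windows between them, and H2-Ab1, Cd74 and Ciita had none in the table. Each run of 57 bases is written 5′ to 3′ on the gene's strand. Capitals mark the Y box TGATTGG, and, where present, the X box core AGCAAC and the letters ATGATG.
H2-Oa: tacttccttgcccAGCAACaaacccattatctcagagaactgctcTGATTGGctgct
H2-Ob: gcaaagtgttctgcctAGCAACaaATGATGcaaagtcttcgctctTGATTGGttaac
H2-Eb1: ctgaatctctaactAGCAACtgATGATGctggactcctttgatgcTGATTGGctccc
H2-DMb2: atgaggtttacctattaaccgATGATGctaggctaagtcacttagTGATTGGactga
H2-DMb1: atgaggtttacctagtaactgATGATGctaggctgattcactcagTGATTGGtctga
H2-Aa: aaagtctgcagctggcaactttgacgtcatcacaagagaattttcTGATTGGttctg

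The stretches are at chr17:34092289-34092345 (plus strand) for H2-Oa, chr17:34238801-34238857 (plus) for H2-Ob and chr17:34305761-34305817 (plus) for H2-Eb1. They are at chr17:34145112-34145168 (plus) for H2-DMb2, chr17:34153083-34153139 (plus) for H2-DMb1 and chr17:34287862-34287918 (minus) for H2-Aa. AGCAAC followed within 50 bases by ATTGG on one strand was found for H2-Oa, H2-Ob and H2-Eb1, and in 0.721% of the 32851 promoter windows; the gap between the X core and the Y box was 26, 23 and 25 bases. Searched on both strands, CCAAT, which overlaps the Y box as its reverse complement, was in 7 of the 8 windows of the set and 37.4% of all windows, and AGCAAC was in 3 and in 14.8% of all. TGACGT, the core of a cAMP response element, was found for H2-Aa and in 7.51% of all windows, and ATGCAAA, part of the octamer, for H2-Ob and in 4.63%. TGATTGG on the gene strand (6 genes; 4.01% of all windows) and ATGATG on both strands (4 genes; 11.2%) were chosen after the letters had been read. The H2-DMb1 and H2-DMb2 windows, from neighbouring paralogs, were 62.3% identical, and the sources used here do not say how reads that match both copies were treated, so the values of these genes are uncertain where the copies match.

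In patches the class II genes were more accessible in B than in T cells at H2-Aa, H2-Ab1, H2-Eb1, Cd74 and H2-DMb2. Of the 35 regions, 33 had a positive log2 fold change of B over T, 9 were called higher in B patches by edgeR at an adjusted p of 0.05, and 0 were called lower. The edgeR background was 1.22% of all tested regions called higher and 1.05% called lower, 2.27% in all. DESeq2 called 15 higher, against 4.4% of all tested regions, and 0 lower, for which no background share is given. The called regions were 2 each of H2-Aa, H2-Ab1, H2-Eb1 and Cd74, and 1 of H2-DMb2. The median log2 fold change was 1.83 over the 35 regions and -0.03 over all tested regions. Unadjusted p was under 0.05 in 22 of the 35 regions, all of them higher in B patches, and in 12.7% of all tested regions. Every B patch library lay above every T patch library in 17 of the 35 regions, against 4.33% of all tested regions, and the opposite was seen in 0, against 3.69%. Among regions with positive fold changes, fewer cells with an open region and less signal per cell cannot be told apart in these bulk captures.

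Over all tested regions 314 were called higher and 269 lower in B patches; scaled by library size alone, 232 were higher and 362 lower, the median of all regions moved to -0.19, and 7 of the 35 were called higher, against 0.902% of all regions. The count of called regions moved with single libraries. It was 3 without B patch 1, 4 without B patch 4, B patch 5 or T patch 3, and 5 without B patch 3, against 0.439% to 0.665% of all regions in those fits. Without both B patch 2 and T patch 2 it was 15, against 2.47%: the 9 regions and 6 more, at the H2-DMb1 and H2-Eb1 ends, inside H2-DMb2, and outside H2-Ab1 and H2-Aa. The regions at the H2-DMb2 end, 1.37 kb from H2-Ab1 and at the Cd74 end were called whichever of the 10 patch libraries was left out.

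**Figure D1:**
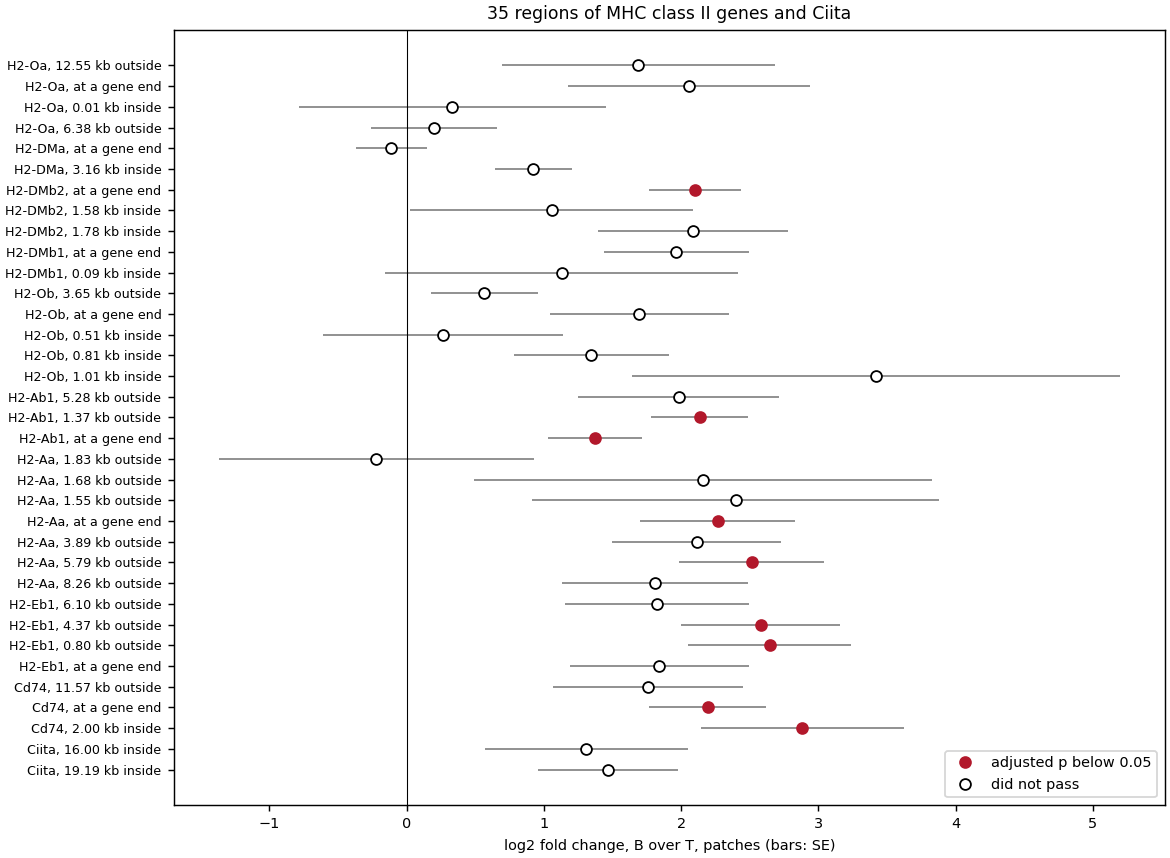
Log2 fold change of B over T patches (x axis) with its standard error for each of the 35 regions, one row per region ordered by gene and named by gene and place; filled points were called at an adjusted p of 0.05. All filled points lie between 1.37 and 2.88, and 2 regions lie left of 0.

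The regions of the I-A and I-E chain genes held 6 of the 9 calls. Over the 14 regions of H2-Ab1, H2-Aa and H2-Eb1 the median log2 fold change was 2.12, and 9 had all B patch libraries above all T patch libraries. At H2-Aa, the alpha chain of I-A, the region over the gene end and its start site (chr17:34287625-34288050) had normalized CPM of 139, 105, 138, 134 and 110.2 in B patches, against 48.1, 0, 28.7, 33.3 and 19.1 in T patches. This is the region that holds the H2-Aa stretch printed above, and its groups were far from overlapping. The log2 fold change was 2.27 ± 0.57 (SE; edgeR adjusted p = 0.0375), with means of 125 ± 16.1 in B and 25.8 ± 17.8 in T patches (SD, n = 5 each). The call was lost when any of 7 of the 10 libraries was left out, with edgeR adjusted p from 0.00317 to 0.0938 over the 10 such fits, and DESeq2 gave 0.0556.

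From the H2-Aa end to the H2-Eb1 end, 8 separate regions lay within 18.3 kb. Of these, 4 were called higher in B patches, and the 8 log2 fold changes were 1.81 to 2.64. The region 5.79 kb beyond H2-Aa (chr17:34293617-34293873) had 101, 92.9, 41.6, 62.4 and 57.3 CPM in B patches, against 21.6, 1.21, 15.9, 14.8 and 8.0 CPM in T patches. The lowest B patch library had more than the highest T patch library, and the log2 fold change was 2.52 ± 0.53 (SE; edgeR adjusted p = 0.0146; 0.0571 without B patch 1). The 2 other regions beyond H2-Aa, 3.89 and 8.26 kb out, had log2 fold changes of 2.11 ± 0.62 and 1.81 ± 0.68 (SE; edgeR adjusted p = 0.0787 and 0.204). Without both number 2 libraries both were called (edgeR adjusted p = 0.00718 and 0.0196), the nearer one also without T patch 2 alone (0.0152), and DESeq2 called both on all libraries (adjusted p = 0.00288 and 0.0402).

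H2-Eb1, the beta chain of I-E, was flanked by 3 regions and had 1 at its end. The region 4.37 kb out (chr17:34301195-34301493) had 77.4, 57.3, 86.8, 73.5 and 84.8 CPM in B patches, against 7.63, 0.402, 9.27, 31.1 and 14.7 CPM in T patches. The region 0.798 kb out (chr17:34304839-34305069) had 76.5, 54.3, 63.6, 88.8 and 89.5 CPM in B patches, against 21.1, 0, 9.80, 15.5 and 12.7 CPM in T patches. In both, the B patch values were several times the T patch values and the groups did not overlap. Log2 fold changes were 2.58 ± 0.58 and 2.64 ± 0.60 (SE; edgeR adjusted p = 0.0212 and 0.0219), and the calls were lost without any of 6 and of 5 libraries. The region at the gene end (chr17:34305688-34305931), which holds the H2-Eb1 stretch printed above, had 78.0, 40.4, 67.7, 68.5 and 55.3 CPM in B patches, against 8.14, 0, 13.1, 29.6 and 35.1 CPM in T patches. Its groups did not overlap, and its log2 fold change of 1.84 ± 0.65 (SE; edgeR adjusted p = 0.167) was called without both number 2 libraries (0.0253). The region 6.10 kb out averaged 45.7 ± 19.0 CPM in B patches and 13.0 ± 8.96 CPM in T patches (SD, n = 5 each), did not overlap and was not called (log2 fold change 1.83 ± 0.67, SE; edgeR adjusted p = 0.193; DESeq2 0.051).

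H2-Ab1, the beta chain of I-A, had its largest difference outside the gene. The region 1.37 kb out (chr17:34261503-34261857) had 99.2, 147, 103, 78.2 and 120.2 CPM in B patches, against 23.9, 12.5, 22.1, 46.4 and 19.3 CPM in T patches. The region at the gene end (chr17:34263052-34263409) had 78.5, 96.9, 82.0, 119.7 and 106 CPM in B patches, against 46.5, 21.7, 38.5, 18.3 and 60.7 CPM in T patches. Neither pair of groups overlapped, and T patches averaged 24.8 ± 12.8 CPM at 1.37 kb and 37.2 ± 17.6 CPM at the end (SD, n = 5), a difference within their spread. Log2 fold changes were 2.14 ± 0.35 at 1.37 kb and 1.37 ± 0.34 at the end (SE; edgeR adjusted p = 0.00427 and 0.0382). The call at the gene end held without B patch 2 or T patch 5 and was lost without any one of the other 8 libraries. The H2-Ab1 region 5.28 kb out averaged 38.9 ± 19.4 CPM in B patches and 9.78 ± 6.35 CPM in T patches (SD, n = 5 each), and was not called by edgeR (log2 fold change 1.98 ± 0.73, SE; adjusted p = 0.197). It was called without both number 2 libraries (edgeR adjusted p = 0.0138) and by DESeq2 (adjusted p = 0.0335).

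On the other side of H2-Aa, 3 short regions lie close to each other, 1.55 to 1.83 kb from the gene. They were sparse, averaging 6.71 to 9.93 CPM in B patches and 1.45 to 9.62 CPM in T patches, and none was called. One of them (chr17:34280703-34280918) had the lowest log2 fold change of the set, -0.22 ± 1.15 (SE; edgeR adjusted p = 0.985), and its sign turned in several fits without 1 library.

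Cd74 on chromosome 18, the invariant chain, was higher in B patches at its end and inside the gene. The region at the end (chr18:60803439-60803973) had 183, 95.1, 199.7, 176 and 122 CPM in B patches, against 26.7, 4.02, 44.6, 49.1 and 44.0 CPM in T patches. The region 2.0 kb inside (chr18:60805845-60806016) had 30.6, 51.4, 52.9, 28.0 and 35.9 CPM in B patches, against 9.15, 0.402, 0.662, 10.5 and 6.00 CPM in T patches. Neither pair of groups overlapped, and inside the gene T patches 2 and 3 had under 1 CPM. Log2 fold changes were 2.19 ± 0.43 at the end and 2.88 ± 0.74 inside (SE; edgeR adjusted p = 0.00932 and 0.0421). The call inside the gene was lost without any library other than T patch 2. Another region, 11.6 kb outside Cd74, averaged 47.4 ± 12.7 CPM in B patches and 13.9 ± 12.2 CPM in T patches (SD, n = 5 each), with no overlap and a log2 fold change of 1.76 ± 0.69 (SE; edgeR adjusted p = 0.235).

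**Figure D2:**
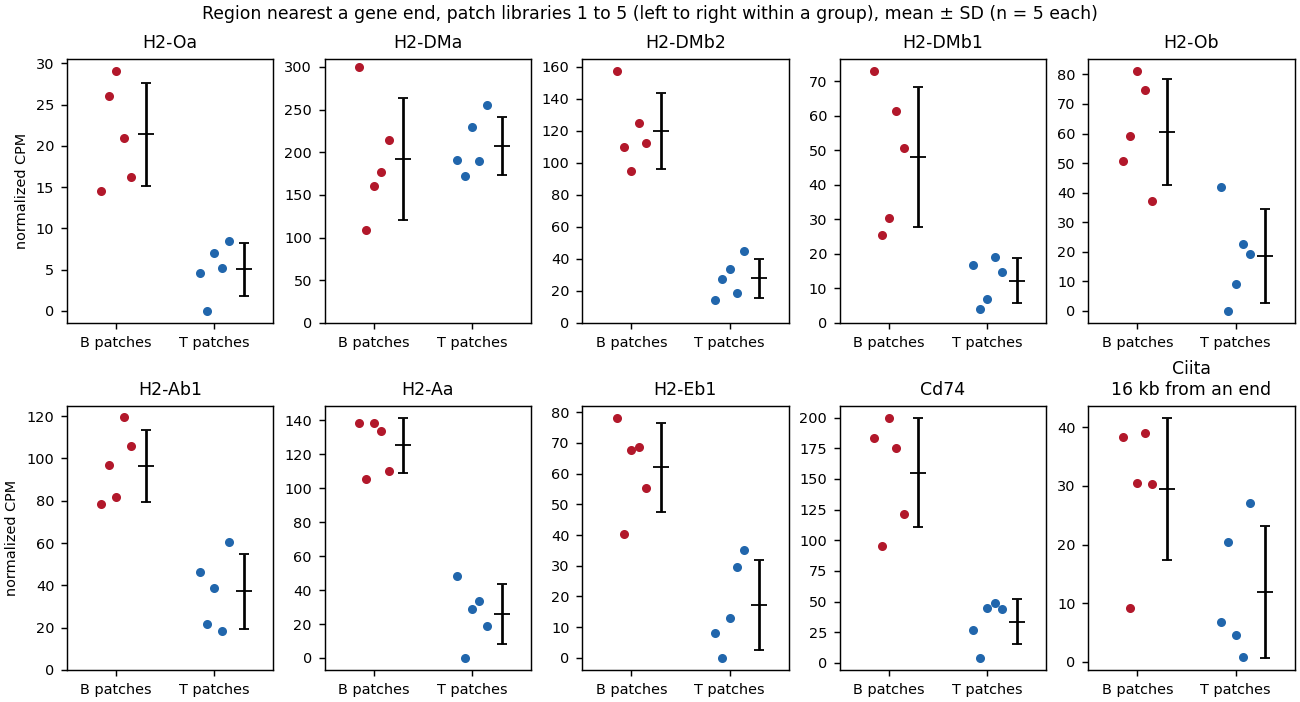
Normalized CPM (y axis) of each patch library at 1 region per gene, B patches left and T patches right in each panel, points for libraries in replicate order and bars for the mean ± SD (n = 5 each). All B patches lie above all T patches at H2-Oa, H2-DMb2, H2-DMb1, H2-Ab1, H2-Aa, H2-Eb1 and Cd74, and the groups overlap at H2-DMa, H2-Ob and Ciita.

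The genes of H2-DM, the peptide exchanger, had 7 regions, of which 1 was called. At the H2-DMb2 end, a beta chain gene, the region chr17:34142961-34143390 had 158, 110.1, 95.1, 125 and 112 CPM in B patches, against 14.5, 27.7, 33.6, 18.5 and 45.1 CPM in T patches. Its lowest B patch library was well above the highest T patch library, and its adjusted p was the smallest of the set (log2 fold change 2.10 ± 0.33, SE; edgeR adjusted p = 0.00356). The printed H2-DMb2 stretch lies in another region, 1.78 kb inside the gene, which averaged 63.3 ± 24.5 CPM in B patches and 14.8 ± 14.5 CPM in T patches (SD, n = 5 each; log2 fold change 2.09 ± 0.69, SE; edgeR adjusted p = 0.135, and 0.0204 without both number 2 libraries). A short region beside it, 1.58 kb inside, averaged 13.4 ± 4.32 CPM in B patches and 6.43 ± 7.37 CPM in T patches, with overlap (log2 fold change 1.06 ± 1.03, SE; edgeR adjusted p = 0.82). At the end of its paralog H2-DMb1, the region chr17:34152736-34153276, which holds the printed stretch, had 72.9, 25.3, 30.3, 61.3 and 50.6 CPM in B patches, against 16.8, 4.02, 6.89, 19.0 and 14.7 CPM in T patches. The groups did not overlap, yet it just missed the threshold (log2 fold change 1.97 ± 0.53, SE; edgeR adjusted p = 0.0514). It was called without B patch 2 (edgeR adjusted p = 0.0278), without both number 2 libraries (0.014) and by DESeq2 (0.00125). The inner H2-DMb1 region, 0.088 kb from the end, averaged 11.3 ± 13.9 CPM in B patches and 5.15 ± 3.93 CPM in T patches, with overlap (log2 fold change 1.13 ± 1.29, SE; edgeR adjusted p = 0.865).

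H2-DMa, the alpha chain of H2-DM, had 1 region with no higher mean in B patches and 1 with all B patches above all T patches. At its end, the region chr17:34119250-34119757 had 299.6, 109, 160.2, 177 and 214 CPM in B patches, against 190.4, 172, 229.9, 189 and 255 CPM in T patches. The groups overlapped and their means were 192 ± 71.2 in B and 207 ± 34.2 in T patches (SD, n = 5 each), with a log2 fold change of -0.11 ± 0.26 (SE; edgeR adjusted p = 0.956). In the gene table H2-DMa has long transcripts that overlap Brd2, a bromodomain gene used in most cells, and this region also lies inside Brd2, so accessibility of the 2 genes cannot be told apart there. The other H2-DMa region (chr17:34135322-34135939), 3.16 kb inside the gene, had 132, 133, 157, 111 and 132 CPM in B patches, against 59.7, 54.3, 109, 44.3 and 82.5 CPM in T patches. Its groups did not overlap, by a narrow margin, and the log2 fold change was 0.92 ± 0.28 (SE; edgeR adjusted p = 0.0922); DESeq2 called it (adjusted p = 0.00373).

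The genes of H2-DO, the restrainer of H2-DM, had 9 regions and no call by edgeR, with 3 regions at an unadjusted p under 0.05; DESeq2 called 1. At the H2-Ob end, the region chr17:34238751-34238946 had 50.6, 59.1, 81.1, 74.8 and 37.2 CPM in B patches, against 42.0, 0, 9.01, 22.8 and 19.3 CPM in T patches. The groups overlapped through T patch 1, and the log2 fold change was 1.70 ± 0.65 (SE; edgeR adjusted p = 0.222). The H2-Ob region with most reads over B and T patches pooled, 3.65 kb outside the gene (chr17:34234997-34235253), had 61.7, 36.3, 80.7, 41.7 and 42.5 CPM in B patches, against 25.9, 41.0, 32.1, 57.6 and 21.1 CPM in T patches. In B patches alone it had fewer reads than the end region, 1337 against 1442. Its groups overlapped, and the log2 fold change was 0.57 ± 0.39 (SE; edgeR adjusted p = 0.666). The 3 regions inside H2-Ob, 0.511, 0.81 and 1.01 kb from the end, averaged 14.0 ± 9.24, 35.9 ± 12.6 and 3.43 ± 2.78 CPM in B patches, against 11.7 ± 7.57, 14.2 ± 8.92 and 0.265 ± 0.592 CPM in T patches (SD, n = 5 each). All 3 overlapped between groups, with log2 fold changes of 0.27 ± 0.88, 1.35 ± 0.56 and 3.42 ± 1.78 (SE; edgeR adjusted p = 0.971, 0.28 and 0.458).

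At the H2-Oa end, the region chr17:34092221-34092387 had 14.6, 26.1, 29.1, 21.0 and 16.3 CPM in B patches, against 4.58, 0, 7.02, 5.26 and 8.45 CPM in T patches. It did not overlap between groups, but was sparse (log2 fold change 2.06 ± 0.88, SE; edgeR adjusted p = 0.3; DESeq2 adjusted p = 0.0364). The H2-Oa region with most reads over B and T patches pooled, 6.38 kb outside (chr17:34101614-34102010), had 35, 79.3, 22.8, 35.4 and 38.0 CPM in B patches, against 54.7, 14.5, 53.5, 19.0 and 40.5 CPM in T patches. Its groups overlapped, with a log2 fold change of 0.20 ± 0.46 (SE; edgeR adjusted p = 0.956). It became -0.16 without B patch 2 and -0.01 without T patch 2. The region 12.5 kb outside H2-Oa averaged 16.1 ± 7.43 CPM in B patches and 4.93 ± 4.09 CPM in T patches (SD, n = 5 each), and the inner one, 0.012 kb from the end, 9.79 ± 7.1 CPM in B patches and 7.79 ± 6.19 CPM in T patches. Both overlapped, with log2 fold changes of 1.69 ± 0.99 and 0.33 ± 1.12 (SE; edgeR adjusted p = 0.554 and 0.972). Over the 16 regions of the H2-DM and H2-DO genes, 1 was called, 4 did not overlap and the median log2 fold change was 1.24; no test compared them with the 14 regions of the chain genes.

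Ciita on chromosome 16 had 2 regions counted to it, both well inside the gene and neither called by edgeR. The region 16 kb inside (chr16:10496017-10496237) had 38.4, 9.18, 30.5, 39.0 and 30.4 CPM in B patches, against 6.86, 20.5, 4.50, 0.752 and 27.1 CPM in T patches. The region 19.2 kb inside (chr16:10499205-10499457) had 49.8, 34.9, 29.3, 43.7 and 24.2 CPM in B patches, against 13.0, 14.9, 12.1, 6.76 and 19.1 CPM in T patches. The first pair of groups overlapped through B patch 2, and the second did not overlap. Log2 fold changes were 1.31 ± 0.74 and 1.47 ± 0.51 (SE; edgeR adjusted p = 0.517 and 0.162), and DESeq2 called the second (adjusted p = 0.0119).

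A further 2 regions lie inside Ciita but are nearer to an end of its neighbour Dexi, and so are outside the set. The region chr16:10515907-10516543 had 143.8, 66.4, 68.2, 76.9 and 95.0 CPM in B patches, against 2.80, 20.9, 14.4, 39.3 and 18.5 CPM in T patches. It did not overlap between groups and was called higher in B patches (log2 fold change 2.23 ± 0.48, SE; edgeR adjusted p = 0.0168; 0.0531 to 0.0685 without B patch 1 or T patch 3). The region chr16:10508752-10509032 averaged 40.9 ± 8.78 CPM in B patches and 4.63 ± 5.97 CPM in T patches (SD, n = 5 each), with a log2 fold change of 3.14 ± 0.93 (SE; edgeR adjusted p = 0.0859). No test bears on whether these regions act on Ciita or on Dexi.

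Set per kb of region, the end regions of 7 genes were close to each other in B patches. This scaling removes length alone, and the end regions are not like sites. Those of H2-DMa and H2-DMb2 lie 3075 and 1859 bases from a start site of the promoter windows, and that of H2-DMa lies inside Brd2. Those of H2-Ob, H2-Aa, H2-Eb1, H2-Oa and H2-DMb1 cover a start site. H2-DMa had 378 ± 140.4 CPM per kb, H2-Ob 311 ± 91.5, H2-Aa 295 ± 38.0, Cd74 290.4 ± 83.4, H2-DMb2 279.8 ± 55.0, H2-Ab1 271 ± 47.8 and H2-Eb1 255 ± 59.8 (SD, n = 5 each). Neighbours in this order differed by less than their SD. H2-Oa followed with 129 ± 37.3 and H2-DMb1 with 89.1 ± 37.4 CPM per kb, below H2-Eb1 by more than the SD of either. In T patches H2-DMa had 409 CPM per kb and the other 8 genes 22.7 to 104, so among these 9 end regions that of H2-DMa was the single one with a mean in T patches above that in B patches.

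**Figure D3:**
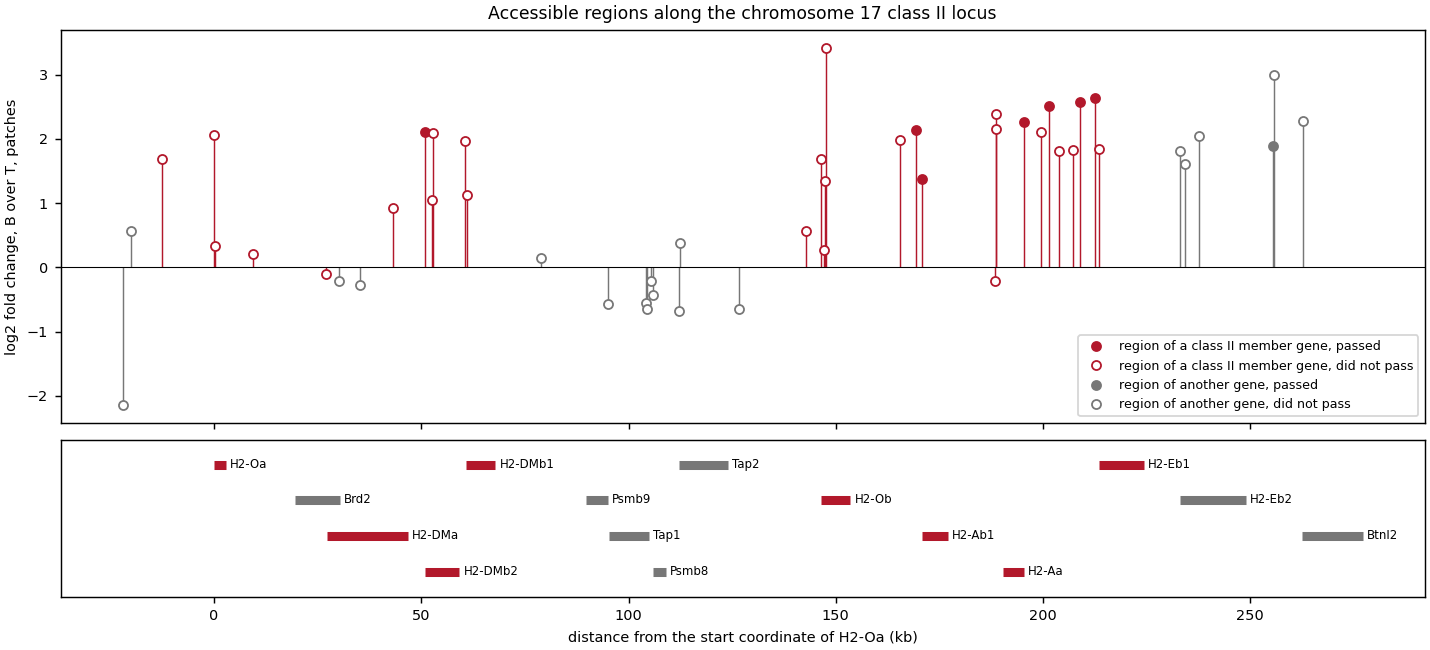
Log2 fold change of B over T patches (y axis) for tested regions along the class II stretch of chromosome 17, against distance in kb from the start of H2-Oa (x axis), with gene bodies drawn as bars, regions of the set in red, other genes in grey and called regions filled. Regions of the set reach 2.64 between H2-Aa and H2-Eb1, while regions at Psmb9, Tap1, Psmb8 and Tap2 lie between -0.69 and 0.39 with those at Brd2.

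Along chromosome 17 the regions of the set lay among regions counted to other genes, of which none was called. The 30 regions of the set on this chromosome spanned 226.27 kb from H2-Oa to H2-Eb1. Between them lay 11 tested regions of Brd2, Psmb9, Tap1, Psmb8 and Tap2; the last 4 encode proteasome subunits and the peptide transporter of class I presentation. Their log2 fold changes were -0.69 to 0.39 with a median of -0.43, and 0 were called by edgeR or by DESeq2, with 1 at an unadjusted p under 0.05 and a lowest edgeR adjusted p of 0.331. The 2 Brd2 regions, at -0.21 and -0.28, lay between both H2-DMa regions, and the other 9 lay between H2-DMb1 and H2-Ob. Both Brd2 regions also lie inside H2-DMa, and the one at -0.21 (chr17:34122172-34122835) covers an H2-DMa start site of the promoter windows. Accessibility of Brd2 and H2-DMa cannot be told apart there either. The regions of H2-DMb1 and H2-Ob all had positive log2 fold changes, from 0.27 to 3.42, of which the lowest, inside H2-Ob, became -0.09 without B patch 2 and -0.04 without T patch 1. Beyond H2-Eb1 the higher signal in B patches went on. All 6 regions there, 5 of H2-Eb2, a further class II beta chain gene, and 1 of Btnl2, a butyrophilin-like gene, had log2 fold changes from 1.61 to 3.0. One H2-Eb2 region was called (1.90 ± 0.45, SE; edgeR adjusted p = 0.0291), and it lost the call without any of 6 libraries.

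Captures of 100 nuclei were shallow, and edgeR called 0 of the 35 regions there, against a background of 0.0156% of tested regions (4 regions, all mitochondrial). Unadjusted p was under 0.05 in 7 of the 35 regions and in 5.5% of all tested regions, and DESeq2 called 0. Which libraries held reads still differed between B and T. Reads were found in more B than T libraries in 29 of the 35 regions, against 43% of all tested regions, in more T than B libraries in 1, the inner H2-DMb1 region, and in equal numbers in 5. On average a region of the set had reads in 67.1% of the B libraries and 26.4% of the T libraries, against 35.8% and 27.4% over all tested regions. B libraries held 4719 reads of the set in all, and T libraries 2508.

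Of the 9 regions called in patches, all 9 had reads in more B than T libraries of 100 nuclei. The H2-Eb1 region 4.37 kb out had 27, 63, 107 and 48 reads in B libraries and 0 in each of the 4 T libraries. The H2-Ab1 region 1.37 kb out had 31, 54, 11 and 98 reads in B libraries, against 0, 0, 15 and 0 reads in T libraries. At the H2-Aa end there were 44, 199, 31 and 21 reads in B libraries, against 0, 38, 0 and 0 reads in T libraries. All 3 had reads in every B library and in at most 1 T library, but the counts varied several-fold within a group.

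At the Cd74 end there were 99, 236, 2 and 41 reads in B libraries, against 58, 23, 0 and 0 in T libraries. The H2-DMb2 end had 0, 77, 36 and 81 reads in B libraries, against 0, 167, 113 and 0 in T libraries. In this region, which had the smallest adjusted p of the set in patches, the T captures of 100 nuclei held the highest single raw count. Scaled for depth, the highest value there was in B, 209.9 normalized CPM in B library 4 against 197.8 in T library 2. Inside Cd74 the highest raw count was also in T, with 15, 0, 0 and 35 reads in B libraries, against 0, 118, 0 and 0 in T libraries. Scaled, T stayed highest there, 139.7 CPM in T library 2 against 90.7 in B library 4. The H2-Ab1 end had its highest raw count in T too, with 0, 1, 77 and 24 reads in B libraries, against 6, 0, 93 and 0 in T libraries. Scaled, B was highest there, 128.8 CPM in B library 3 against 92.1 in T library 3. The log2 fold change at 100 nuclei was positive in 8 of the 9 regions. The H2-DMa end had 311, 163, 192 and 69 reads in B libraries, against 256, 214, 193 and 243 in T libraries, and was the single region of the set with reads in every T library.

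Ciita was sparse at 100 nuclei. Its region 16 kb inside had 1, 105, 0 and 21 reads in B libraries, against 0, 0, 0 and 115 in T libraries, and its region 19.2 kb inside had 0, 49, 0 and 28 reads in B libraries and none in T libraries. T libraries 3 and 4 had reads in 15.2% and 12.7% of tested regions, against 29.4% to 42.3% in the other 6, so zeros there do not show a closed region; reads carried no stated molecular identifiers and are not independent molecules. Over the set, 12 regions had reads in B libraries and in no T library, and 0 the reverse. No share of all tested regions is given for these counts, and T libraries 3 and 4 were sparse. The counts are therefore not read as a result about the set. B libraries lay wholly above T libraries in 5 regions of the set, against 1.05% of all tested regions. They lay wholly below in 0, against 0.124%.

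**Figure D4:**
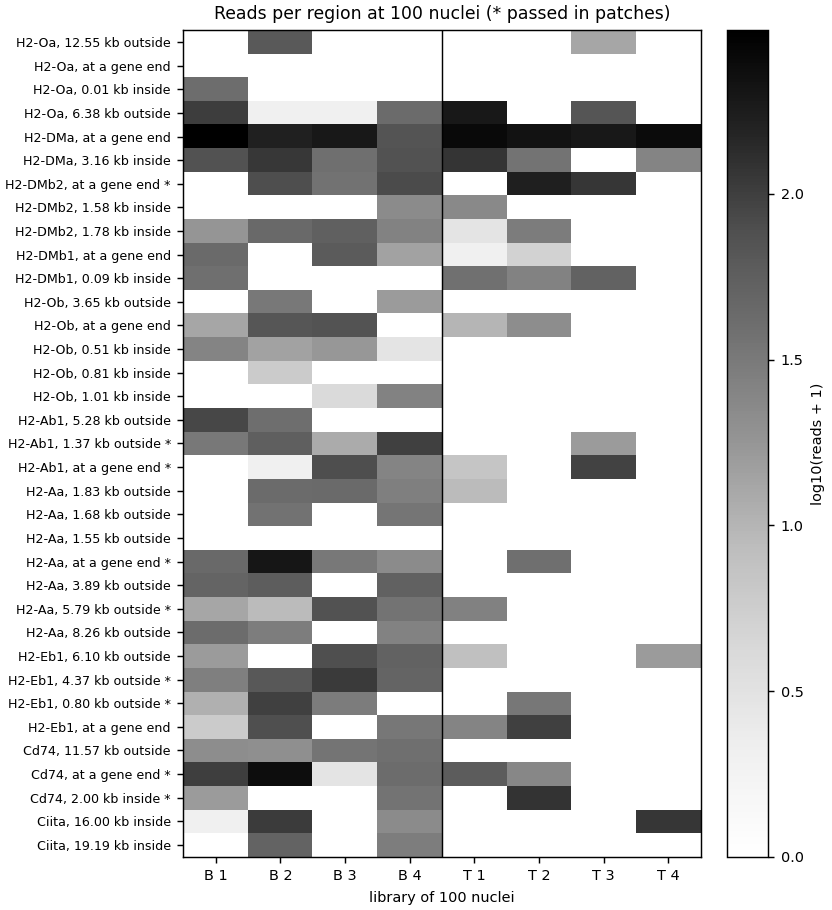
Reads in each library of 100 nuclei (columns, B left of T) for the 35 regions of the set (rows), on a log colour scale with empty cells for 0 reads. 11 regions had reads in all 4 B libraries, and 1, at the end of H2-DMa, in all 4 T libraries.

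The difference between capture sizes was tested as an interaction over all 18 libraries. It passed in 0 of the 35 regions and in 0% of all tested regions. Unadjusted p was under 0.05 in 10 of the 35 and in 27.1% of all tested regions, and the lowest adjusted p in the set was 0.0725 by edgeR. The same joint fit called 0 regions for B against T in patches, where the fit of patches alone called 583. It missed those differences, so it cannot decide whether fold changes differ between capture sizes, and the shallow captures leave wide errors.

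As a share of all nuclear counts, the 35 regions took 0.257% ± 0.0178 in B and 0.0992% ± 0.0186 in T patches (SD, n = 5 each). In the small captures they took 0.311% ± 0.0772 in B and 0.130% ± 0.0250 in T captures (SD, n = 4 each). The lowest B library exceeded the highest T library at both sizes, 0.239% against 0.120% in patches and 0.239% against 0.164% at 100 nuclei. Without H2-DMa the shares were 0.215% ± 0.0137 in B and 0.0631% ± 0.0168 in T patches, and 0.244% ± 0.0790 in B and 0.0682% ± 0.0155 in T captures of 100 nuclei. The mitochondrial share of all counts, which averaged 27.6% in B patches, 19.4% in T patches, 39.6% in B and 30.3% in T captures of 100 nuclei, is left out of these shares.

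**Figure D5:**
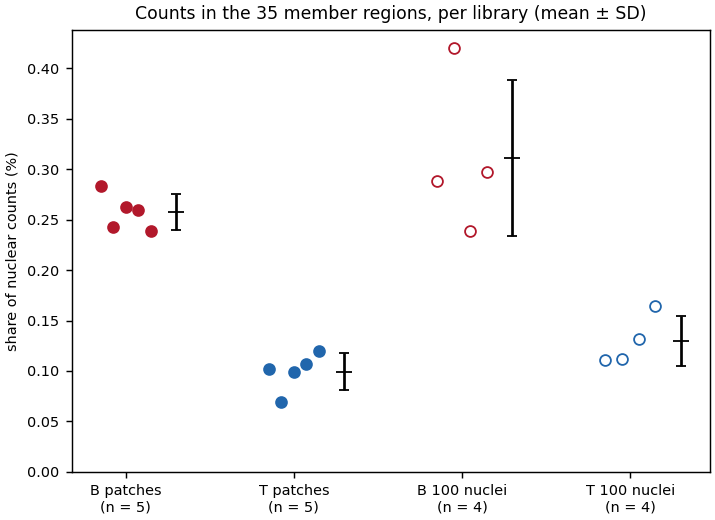
Percent of nuclear counts (y axis) in the 35 regions for every library, by group (x axis, B left of T at each capture size), with mean ± SD bars. B libraries run from 0.239% to 0.420% and T libraries from 0.0693% to 0.164%.

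Markers of other cells that carry class II were also read. Dendritic cell markers had 10 regions at 4 of 7 genes, with none for Itgax, Zbtb46 and Xcr1, and took 0.0200% to 0.0321% of nuclear counts in B patches, against 0.00683% to 0.0128% in T patches. Their log2 fold changes were positive in 10 of 10, with a median of 1.58; edgeR called 0, DESeq2 1, and 2 had an unadjusted p under 0.05. Macrophage and monocyte markers had 5 regions at 2 of 6 genes, with none for Cd68, Lyz2, Marco and Cd14, and took 0.0160% to 0.0255% of nuclear counts in B patches, against 0.00261% to 0.0104% in T patches. One of them, 9.21 kb from Adgre1, was called higher in B patches (log2 fold change 2.65 ± 0.70, SE; edgeR adjusted p = 0.0467), and was lost without any of 8 libraries. The single Csf1r region was at -0.08 ± 1.30, and the 4 Adgre1 regions were at 1.09 to 2.65, so 4 of 5 were positive; 2 of 5 had an unadjusted p under 0.05, and DESeq2 called 2. The part of such cells in the class II differences was not tested.

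Other genes of the class II pathway are read against the same background, 1.22% of tested regions called higher and 1.05% lower by edgeR, and 4.4% called higher by DESeq2. No share of all tested regions called lower by DESeq2 is given, so lower DESeq2 calls are not read as a result about a list. Factors that bind class II promoters (Rfx5, Rfxap, Rfxank, Creb1 and the NF-Y subunits) had 12 tested regions, 0 called by edgeR or DESeq2, 1 at an unadjusted p under 0.05 and a median log2 fold change of 0.16. Factors known to act on Ciita had 32 regions, 1 called higher in B patches and 0 lower, and a median of 0.07; the call lay 10.8 kb outside Irf8, a transcription factor of B and myeloid cells, with 112 ± 24.1 CPM in B patches and 22.2 ± 13.9 CPM in T patches (SD, n = 5 each; log2 fold change 2.33 ± 0.40, SE; edgeR adjusted p = 0.00478). DESeq2 called 6 of the 32 higher, and 6 higher and 2 lower had an unadjusted p under 0.05. Genes of class II processing and turnover had 19 regions, 2 higher and 0 lower in B patches, and a median of 0.75; DESeq2 called 6 of the 19 higher, and 7 had an unadjusted p under 0.05, all higher. Both calls were at Cd83, which is known to keep class II on the surface by opposing its ubiquitination, 19.5 kb outside the gene (2.01 ± 0.40, SE; edgeR adjusted p = 0.0111) and at its end (1.72 ± 0.38; 0.0202, lost without any of 4 libraries). MHC class I presentation had 21 regions, 0 called by edgeR, 2 at an unadjusted p under 0.05 (both lower in B patches), 1 called lower by DESeq2, and a median of -0.22.

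Genes next to the member loci had 33 regions, 3 higher and 1 lower in B patches by edgeR, with a median of 0.29, against 1.22% and 1.05% of all tested regions. DESeq2 called 8 higher and 2 lower, the lower ones again with no background share, and 10 higher and 2 lower had an unadjusted p under 0.05. Besides the Dexi and H2-Eb2 regions above, a region inside Tcof1, a ribosome biogenesis gene beside Cd74, was higher in B patches (2.30 ± 0.51, SE; edgeR adjusted p = 0.0189), and 1 outside Socs1, a suppressor of cytokine signalling near Ciita, was lower (-1.55 ± 0.37, SE; edgeR adjusted p = 0.0307). These calls were lost without any of 3 and of 7 libraries. As a description over the 10 patch libraries and 5666 genes, the genes whose summed log2 CPM followed that of the set most closely were Fcrla (Pearson r = 0.998), Klrb1f (0.985), Ms4a1 (0.967), Blnk (0.966) and Nup160 (0.965). These points share the contrast of B with T libraries and their depth.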

How the data were processed

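Accessible chromatin was measured in 18 libraries of 4 groups. The authors deposited 1 table of raw whole-number counts for 27396 regions, and each column was matched to a library by the name in the labels. Per the labels' protocols, reads were paired-end with 50 bases. The submitters' processing notes name mm10 and Bowtie2 2.4.5, MACS2 2.2.7.1, Trimmomatic 0.36, SAMtools 1.14, Picard, bcl2fastq 2.20, R 4.1.0 and deepTools 3.5.2. The sources used here do not give their roles, how regions were called, the handling of duplicate or multiply mapped reads, any shift for the transposase, or whether starts count from 0 or 1.

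Regions were assigned with a RefSeq gene table of GRCm38.p6 (86.7% had a protein-coding gene end within 50 kb). The 25712 regions past filterByExpr (minimum count 10) were tested with the quasi-likelihood F-test of edgeR 4.0.16 (R 4.3.3) after TMM scaling, and p was adjusted over all of them by Benjamini-Hochberg. Each capture size was fitted alone, and the interaction on 18 libraries. The SE is the absolute log2 fold change over the square root of the F statistic. Normalized CPM were computed by edgeR with TMM factors, mitochondrial counts included. The fits were tested on simulated data. Of 32 pairs of libraries within groups, none was a duplicate within counting error. Each library was left out in turn, and other filters, other scalings, a 10 kb limit, 1 fit of all groups, a block for the replicate number and DESeq2 1.42.0 were tried. Each region of the set is described with its gene, with values per library for called regions, for the region at or nearest each gene's end and for the region with most counts over patches, and by mean and SD or range for the others. The members and gene lists were chosen with earlier results of these data known. The sums by gene and the promoter letters were read as descriptions, with no test.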

Additional observations from a re-analysis of the deposited data

Results flagged for a closer look

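A value was singled out when 1 of the 5 patch libraries, or 1 of the 4 libraries of 100 nuclei, stood far from its group (Dixon's criterion). Of 74 groups of values tried, 5 met it, and about 1 in 20, or 3.7, would by chance. Of these, 3 were in B patch 2, which also had 22.1% of the tested regions at 0. The H2-Oa region 6.38 kb outside the gene had 79.3 CPM in B patch 2 and 22.8 to 38.0 CPM in the other B patches. The H2-Aa region 8.26 kb outside had 20.6 CPM in B patch 2 and 51.6 to 61.7 CPM in the others. The Ciita region 16 kb inside had 9.18 CPM in B patch 2 and 30.4 to 39.0 CPM in the others. In T patches, the H2-DMb2 region 1.58 kb inside had 19.1 CPM in T patch 1 and 0 to 5.26 CPM in the others, and an inner H2-Ob region (1.01 kb) had 1.32 CPM in T patch 3 and 0 in the others. None of the 5 regions was called in patches by edgeR on all libraries. The H2-Aa region was called by DESeq2 (adjusted p = 0.0402) and without both number 2 libraries (edgeR adjusted p = 0.0196). The part of B patch 2's sparse coverage in these values was not tested.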

How the results depend on the processing

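In patches, the 9 of 35 regions called became 3 to 9 when each library was left out, 4 with the replicate number as a block (background 0.474%), 0 in the joint fit of 18 libraries, 15 with DESeq2 (4.4%) and 15 without both number 2 libraries (2.47%), the last chosen after seeing the data; other scalings and filters and the 10 kb limit gave 7 to 10. Over all regions the 583 calls became 259 to 673 with each library left out, 215 with the block, 0 in the joint fit, 2120 with DESeq2 and 1156 without both number 2 libraries. The median log2 fold change of the set was 1.57 to 2.04 with each library left out, 1.66 with library size alone and 2.23 with the block. At 100 nuclei the 4 calls became 2 to 4 with each library left out, and 0 with the block, with DESeq2 and without mitochondrial regions. The joint fit called 6955 of the 25712 tested regions there, counting both directions, among them 13 of the 35. Of all tested regions, it called 4625 (18%) higher in B. Same-numbered libraries deviated together with r of -0.004 to 0.035 in patches and -0.005 to 0.011 at 100 nuclei, and 2 of 10 and 2 of 8 libraries correlated best with their own number, so the numbers are not taken to pair samples. With all counts as denominator the shares were 0.187% in B and 0.0800% in T patches, and 0.186% in B and 0.0911% in T captures of 100 nuclei.

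Signs turned in 5 regions near 0, none called. With each patch library left out, the H2-Aa region 1.83 kb out ran from -0.66 to 0.21 (0.05 without B patch 3, 0.02 without B patch 5, 0.09 without T patch 1, 0.21 without T patch 2) and was 0.18 without both number 2 libraries. The H2-Oa region 6.38 kb out ran from -0.16 (without B patch 2) to 0.39, with -0.01 without T patch 2, and was -0.35 without both. The inner H2-Ob region (0.511 kb) ran from -0.090 (without B patch 2) to 0.59, with -0.04 without T patch 1, the inner H2-Oa region from -0.0048 (without B patch 4) to 0.84, and the H2-DMa end from -0.33 to 0.036 (without B patch 2). The cause was not tested. Depth limits the captures of 100 nuclei, where fold changes depend on the prior count, and technical replicates limit every p-value.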
